A study of Homo sapiens with 2 samples.

Results

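The splicing factors examined here are the SR proteins (genes named SRSF plus a number), the heterogeneous nuclear ribonucleoproteins or hnRNPs (genes whose symbol starts with HNRNP), the SR-like factors TRA2A and TRA2B, and the kinases CLK1 to CLK4, SRPK1 and SRPK2, which phosphorylate SR proteins. They were chosen by gene symbol alone, as all such genes, pseudogenes left out, with an array probe set assigned to no other gene. That gave 38 of the 19775 genes so covered: 10 SR proteins, 2 TRA2 factors, 19 hnRNPs, 4 CLKs, 2 SRPKs and HNRNPD-DT, a non-coding RNA named after its neighbour HNRNPD. Together they hold 141 probe sets. SRSF2, SRSF9, HNRNPH2 and several hnRNP-like genes have no probe set of their own and are given no value.

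RNA was taken from cells labelled HT-29, a human colorectal adenocarcinoma cell line, either kept as monolayer in DMEM/F-12 medium with 10% fetal bovine serum, or grown from such cells as spheroids for 5 days on low-adhesion plates in stem cell media that held B27 together with the growth factors EGF and FGF. Both groups carry antibiotic-antimycotic and are otherwise untreated, so that growth form, serum and growth factors differ together and cannot be told apart. The study asks which pathways are raised in spheroids, which it uses as cultures enriched in cancer stem cells (CSCs). For each growth form 1 array (Affymetrix U133 Plus 2.0) was analysed, which leaves no measure of the spread between cultures and allows no test.

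Values are MAS5 signals, intensities on a linear scale that the authors brought to the same trimmed mean on both arrays. Each difference is the log2 of the spheroid over the monolayer signal, by the probe set of the gene with the highest mean signal. Lower signals were raised to 62.7, the median over all probe sets of both arrays and called the floor below, and a gene above it on 1 or both arrays is called measured. Probe sets of the same gene differ from each other with an SD of 0.41 on the log2 scale over 5506 genes, which is the only error available and holds no culture variation. Over all 13183 measured genes the median log2 difference was -0.05. The 18 probe sets for spiked-in hybridisation controls all read lower in spheroids, at a mean log2 difference of -0.25, and scaling to them would raise by that amount each log2 difference between signals above the floor on both arrays, turn such differences between -0.25 and 0 positive and move the median of all genes to 0.18. Of 11 markers of colon epithelium 5 were above the floor on both arrays, namely EPCAM, CDH1, KRT8, KRT18 and KRT20, the last at 99.6 in monolayer and 218.4 in spheroids. VIL1, CDX2 and CEACAM5 were above it on 1 array, and the intestinal markers CDX1, CDH17 and LGALS4 were under it on both. The cells thus had epithelial markers, but the low or absent intestinal ones go against the label of a colorectal line, and HT-29 is used here only as the label's name. Of 8 markers of blood, endothelial and stromal cells 5 were under the floor on both arrays. Their summed signal was 1686 in monolayer and 2289 in spheroids, most of it from the collagen gene COL1A1 (1370 and 1972), which also goes against that label, and its part in the results was not tested.

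Exons are recognised in part through proteins that bind the transcript beside the splice sites. SR proteins carry an RNA recognition motif and a domain rich in arginine and serine, and mostly promote inclusion of an exon, while many hnRNPs oppose it. SRPKs in the cytoplasm and CLKs in the nucleus phosphorylate the arginine-serine domain, which governs where SR proteins reside and when they act. Many genes of these families limit their own output through exons or introns that, when kept, end translation of the transcript early.

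CLK1 and CLK4 were higher on the spheroid array, and their relatives CLK2 and CLK3 lay near 0, slightly lower as deposited and slightly higher (0.06 and 0.04) when scaled to the spike-ins. CLK1, the nuclear kinase that gives the family its name, gave a signal of 524.5 on the monolayer array against 1957 on the spheroid array, which is a log2 difference of 1.90 or 3.73-fold. CLK4, its close relative, gave 446.5 against 1097, which is a log2 difference of 1.30 or 2.46-fold. Both kinases were thus lower in monolayer cells, and they were the only members past 2-fold in either direction. CLK2, also a nuclear SR protein kinase, went from 1206 to 1058 (log2 difference -0.19). CLK3, a kinase of the same family, went from 1587 to 1380 (-0.20). In both the difference was smaller than the SD between probe sets.

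The 2 members at least 2-fold higher stand among 37 measured members. Of all measured genes 2.53% were past that limit upward, 3.08% downward and 5.61% in either direction. Within the mean signal range of the protein-coding members, 2.13% of 6231 genes were past it in either direction. CLK1 has 1 probe set, whose name ends in _s_at, a suffix for probes shared between several transcripts. CLK4 has a second probe set above the floor on both arrays, which went from 142.4 to 426.2, a log2 difference of 1.58. The other 2 probe sets of CLK4 were under the floor on both arrays. CLK3 has a second probe set near the floor, with signals of 72.0 and 71.0. Across the other ways of scaling the arrays or treating low signals, the log2 difference of CLK1 lay between 1.82 and 2.15. Other probe set choices could not move it, since CLK1 has 1 probe set, and without _s_at probe sets it has no value. Across all these choices, those of probe sets included, the log2 difference of CLK4 lay between 1.22 and 1.58.

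The kinases of the other family stood near 0. SRPK1, a mainly cytoplasmic kinase that SR proteins need to enter the nucleus, had signals of 4880 in monolayer and 4793 in spheroids (log2 difference -0.03). SRPK2, its relative, had 2428 and 2672 (0.14), and its 4 other probe sets above the floor ranged from -0.71 to 0.31. Neither kinase therefore differed by more than its probe sets did.

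**Figure D1:**
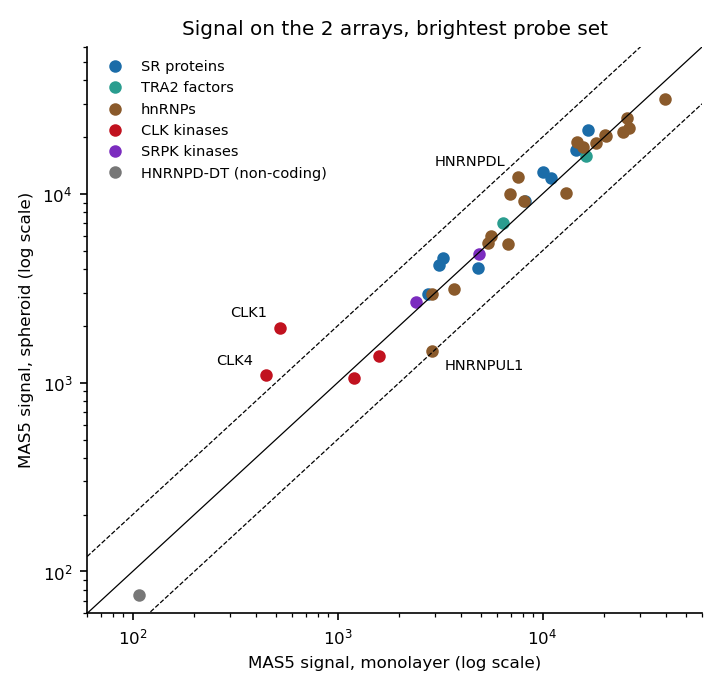
MAS5 signal of each measured member on the monolayer array (horizontal) and the spheroid array (vertical), both axes on a log scale, 1 array per condition. Each point is the brightest probe set of a gene, the solid line marks equal signals and the dashed lines 2-fold differences. CLK1 (524.5 and 1957) and CLK4 (446.5 and 1097) lie above the upper dashed line, and HNRNPUL1 (2895 and 1467) lies just inside the lower one.

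The windows around the start sites of the 4 CLK genes are shown because 2 of these paralogs differed by over 2-fold and 2 did not. Each runs from 250 bases before to 50 bases after a start site in RefSeq (GRCh38.p14), 5′ to 3′ on the strand of the gene. Capitals mark matches on either strand to 9 short motifs: TATA box (TATAAA), the box named by its letters CCAAT, GC box (GGGCGG), E-box (CACGTG), cAMP response element (TGACGTNA), ETS motif (CCGGAAG), YY1 motif (GCCATNTT), heat shock element (GAANNTTC) and hypoxia response core (ACGTG, which every E-box contains). The motifs were listed after the CLK values and windows had been seen. CLK1 and CLK3 have 2 listed start sites each, of which 1 is printed.
CLK1 promoter, chr2:200864609-200864908, minus strand: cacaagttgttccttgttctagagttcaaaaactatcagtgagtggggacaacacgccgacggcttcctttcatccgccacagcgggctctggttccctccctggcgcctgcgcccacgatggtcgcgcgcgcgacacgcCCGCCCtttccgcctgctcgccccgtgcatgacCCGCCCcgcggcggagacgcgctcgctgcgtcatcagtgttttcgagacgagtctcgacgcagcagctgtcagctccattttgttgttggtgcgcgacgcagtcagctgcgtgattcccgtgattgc
CLK4 promoter, chr5:178627001-178627300, minus strand: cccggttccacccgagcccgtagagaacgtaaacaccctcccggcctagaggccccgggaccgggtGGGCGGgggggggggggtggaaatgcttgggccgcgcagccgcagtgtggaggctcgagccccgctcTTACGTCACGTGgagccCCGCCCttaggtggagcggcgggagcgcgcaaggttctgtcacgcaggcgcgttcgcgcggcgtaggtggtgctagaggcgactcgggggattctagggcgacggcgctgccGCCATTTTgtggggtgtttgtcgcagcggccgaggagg
CLK2 promoter, chr1:155273455-155273754, minus strand: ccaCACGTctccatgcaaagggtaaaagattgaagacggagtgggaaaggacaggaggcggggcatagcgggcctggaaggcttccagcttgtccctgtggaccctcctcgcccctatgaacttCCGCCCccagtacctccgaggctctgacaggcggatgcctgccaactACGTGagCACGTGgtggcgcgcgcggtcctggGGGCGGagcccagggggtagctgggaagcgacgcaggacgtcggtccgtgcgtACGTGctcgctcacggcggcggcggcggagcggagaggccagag
CLK3 promoter, chr15:74615586-74615885, plus strand: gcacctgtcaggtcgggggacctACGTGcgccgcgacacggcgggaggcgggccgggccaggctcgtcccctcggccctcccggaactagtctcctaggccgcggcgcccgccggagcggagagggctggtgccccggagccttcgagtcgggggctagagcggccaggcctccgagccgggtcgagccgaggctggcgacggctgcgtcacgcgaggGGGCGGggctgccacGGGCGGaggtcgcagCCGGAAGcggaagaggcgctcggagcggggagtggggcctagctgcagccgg
In the CLK1 window the GC box had 2 matches and the other motifs 0, and the same held for its second start site. The CLK4 window held 2 GC boxes, 1 E-box, 1 cAMP response element and 1 YY1 motif, the cAMP response element and the E-box overlapping. CLK2 held 2 GC boxes and 1 E-box, and the printed CLK3 window 2 GC boxes and 1 ETS motif. The hypoxia response core had 5 matches in CLK2, 2 in CLK4 and 1 in the printed CLK3 window, each E-box counting on both strands. The GC box was thus in all 4 printed windows, though the other start site of CLK3 held 0 GC boxes, and 45.0% of all 35116 promoter windows hold it. The cAMP response element occurs in 3.01% of all windows, the YY1 motif in 6.58% and the E-box in 7.26%. Of the 38 members 36 have a window, 55 windows in all. Of these 35 (63.6%) held a GC box, 22 (40.0%) the hypoxia response core against 21.4% of all windows, and 4 (7.27%) a heat shock element against 6.77%. An E-box was in 9 of the members' windows (16.4%), the YY1 motif in 6 (10.9%) and the cAMP response element in 3 (5.45%). The members' windows are also richer in G and C, with a median of 65% against 58.7%. A match describes the letters only.

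SR proteins were mostly slightly higher in spheroids. Of 10 genes 9 were measured, and 8 of these were above 0, where 45.2% of all measured genes were. Their median log2 difference was 0.23, beside -0.05 for all genes. None of the 9 reached 1.5-fold by its brightest probe set, a limit that 9.53% of all measured genes passed upward and 11.6% downward. Within the mean signal range of the protein-coding members, 13.9% of genes passed it in either direction.

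Among the SR proteins with a single RNA recognition motif, SRSF3, the smallest of the family, gave 16729 in monolayer against 21752 in spheroids, or 0.38 on the log2 scale. SRSF7, which also carries a zinc knuckle, had 11062 and 12175 (0.14). SRSF8, a relative of SRSF2, had 3137 and 4200 (0.42). All 4 of its probe sets were higher in spheroids, at 0.41 to 0.94. SRSF10, which represses splicing when it loses its phosphates, had 2759 and 2947 (0.10). SRSF11, a more distant member of the family, had 8175 and 9119 (0.16). By its brightest probe set each of these was higher in spheroids, by less than the SD between probe sets in all but SRSF8. The 2 others of SRSF11 above the floor on both arrays were at -0.08 and 0.03, and the 4 others of SRSF10 ranged from -0.02 to 0.50. The direction of both thus depended on the probe set. SRSF12, a relative of SRSF10, was under the floor on both arrays by both of its probe sets.

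Among those with a second RNA-binding domain, SRSF1, a founding member of the family, had 14622 in monolayer and 17159 in spheroids (0.23). All 8 of its probe sets were above the floor and higher in spheroids, the others at 0.23 to 0.89. SRSF5 had 3282 and 4559, the largest difference of the SR proteins by brightest probe set (0.47), and its second measured probe set was at 0.45. SRSF6 had 10024 and 13034 (0.38), with its other probe set at 0.04. SRSF4 was the exception, at 4870 in monolayer and 4056 in spheroids (-0.26), although its other 2 over the floor in both cultures were at 0.37 and 1.54.

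The TRA2 factors, which bind purine-rich exonic enhancers, were near 0 by their brightest probe sets. TRA2A had signals of 6424 in monolayer and 6983 in spheroids (log2 difference 0.12), and TRA2B 16355 and 15961 (-0.04). Dimmer probe sets of both genes were higher in spheroids. That of TRA2A above the floor on both arrays went from 167.4 to 329.8 (0.98), and 1 of TRA2B from 279.0 to 640.1 (1.20).

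**Figure D2:**
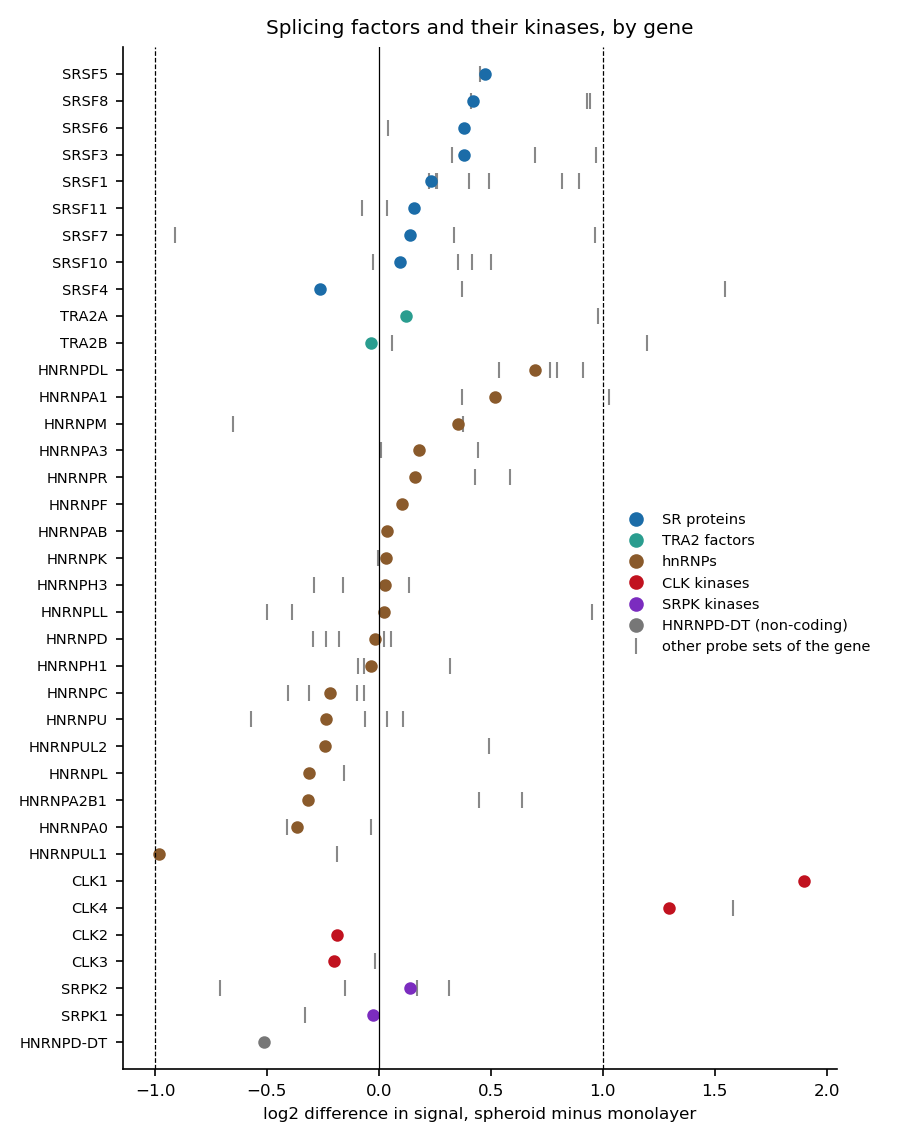
Log2 difference in signal between the spheroid and the monolayer array for the 37 measured members, grouped by family, 1 array per condition. Dots are the brightest probe sets, grey ticks the other probe sets of the gene above the floor on each array, and 2-fold limits are dashed. CLK1 (1.90) and CLK4 (1.30) are the dots beyond a dashed line, 8 of 9 SR proteins lie right of 0, and the hnRNPs lie on both sides of it.

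Most other probe sets of the SR and TRA2 genes showed larger differences than the brightest, a comparison chosen after the values were seen. These 11 genes have 29 further ones over the floor in both cultures. Of them 20 (69.0%) were at a higher log2 difference than the brightest probe set of their gene, beside 53.9% over 9309 such probe sets of all genes. They were above 0 in 26 of 29 cases, with a median of 0.41, where the further probe sets of all genes had a median of 0.04. At least 1.5-fold higher were 10 of the 29, beside 15.2% over all genes, and 1 was at least 1.5-fold lower. SRSF1 alone held 7 of the 29, of which 6 were above its brightest. Some other SR-related proteins also had further probe sets above the brightest. Those of PNN ran from 0.30 to 1.00 (brightest -0.17) and those of SCAF11 from 0.39 to 1.08 (brightest 0.24). Those of RBM39, from -1.21 to 0.16, lay under its brightest at 0.48. This was not counted over those proteins.

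Among the SR and TRA2 genes SRSF4 showed the widest gap. A probe set of it went from 194.2 in monolayer to 566.1 in spheroids, while its brightest one was lower in spheroids. SRSF7 had a probe set that went from 727.9 to 1419 (log2 difference 0.96) and another that went from 180.3 to 95.9 (-0.91), so that its probe sets oppose each other. A dim SRSF3 probe set went from 134.0 to 262.3 (0.97), and 1 of SRSF1 from 1143 to 2124 (0.89). Of the 29 probe sets 12 had signals under 1000 on both arrays, and 6 of these, a limit set after the values were seen, were at least 1.5-fold higher, where 16.3% of the probe sets that dim over all genes were. Which part of the transcript each probe set reads was not determined here, and signal strength moves with the result. Its part was not tested.

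**Figure D3:**
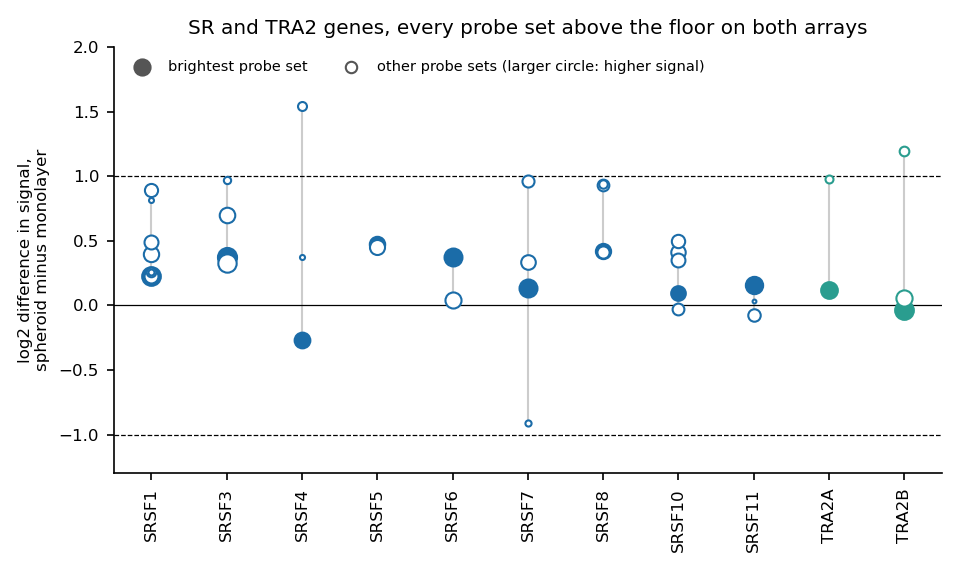
Log2 difference in signal, spheroid minus monolayer, of every probe set above the floor on both arrays for 9 SR genes and 2 TRA2 genes, 1 array per condition. Filled circles are the brightest probe sets, open circles the others, circle area grows with mean signal, and dashed lines mark 2-fold differences. For SRSF4 and TRA2B a small open circle lies above the upper dashed line, at 1.54 and 1.20, while the filled circle lies under 0.

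The hnRNPs as a family did not move one way. All 19 were measured, 10 were above 0 and 9 below, and their median log2 difference was 0.02. Of all measured genes 45.2% were above 0. Past 1.5-fold were 2 of the 19, HNRNPDL upward and HNRNPUL1 downward, where 21.2% of all measured genes were past it in either direction. Within the mean signal range of the protein-coding members, which leaves out dimmer genes, 13.9% of 6231 genes were past it.

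HNRNPDL, a relative of HNRNPD that shuttles between nucleus and cytoplasm, gave 7613 in monolayer against 12340 in spheroids, or 0.70 on the log2 scale and 1.62-fold. Its 4 other such probe sets were also higher, at 0.53 to 0.91. The SD between its probe sets was 0.14. HNRNPUL1, a relative of HNRNPU, gave 2895 in monolayer against 1467 in spheroids, or -0.98 on the log2 scale and 1.97-fold lower. Its second probe set, much dimmer at 187.7 and 164.9, was at -0.19, and with each array divided by its median the first stood at -1.06. The size of the HNRNPUL1 difference therefore rests on 1 probe set.

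Of the hnRNPs that bind exonic and intronic silencers, HNRNPA1 had 6938 in monolayer and 9943 in spheroids (0.52) by a probe set whose suffix, _x_at, stands for probes that can match other transcripts. Its 2 other probe sets were at 0.37 and 1.03, all 3 in the same direction. HNRNPA2B1, its close relative, had 39588 and 31811 (-0.32), but its other 2 measured probe sets were at 0.45 and 0.64. HNRNPA0 had 12967 and 10065 (-0.37), HNRNPA3 8133 and 9211 (0.18) and HNRNPAB 18258 and 18702 (0.03). The A and B type proteins were therefore higher by some genes and lower by others, and for HNRNPA2B1 the direction depended on the probe set.

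HNRNPC, which binds runs of U, had 24702 in monolayer and 21251 in spheroids (-0.22), and its 4 others over the floor in both cultures were also lower, at -0.40 to -0.07. HNRNPL, which binds CA repeats, had 6785 and 5458 (-0.31), and its other probe set was at -0.15. HNRNPU, a large protein of the nuclear matrix, had 26354 and 22351 (-0.24), with others from -0.57 to 0.11. As deposited HNRNPC and HNRNPL were thus lower in spheroids by each such probe set, while those of HNRNPU were divided. Scaling to the spike-ins turns the brightest probe set of HNRNPC to 0.03 and that of HNRNPU to 0.01. The HNRNPC probe sets at -0.40 and -0.31, both bright, would stay below 0, and those at -0.10 and -0.07 would turn positive. The same scaling leaves the brightest of HNRNPL at -0.07 and turns its other probe set positive. A dim HNRNPC probe set was above the floor in spheroids alone, at 114.6.

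HNRNPM, a regulator of exon skipping, had 14795 in monolayer and 18924 in spheroids (0.36). Its other probe sets over the floor in both cultures were a bright one at 0.38 and a dim one, from 119.5 to 76.1, at -0.65. Its direction thus depended on the probe set, the lower one being close to the floor. HNRNPR had 15804 and 17675 (0.16), with its 2 other probe sets also higher, at 0.43 and 0.58. The remaining hnRNPs, the G-run binding HNRNPF, HNRNPH1 and HNRNPH3, the C-rich binding HNRNPK, the mRNA decay factor HNRNPD and HNRNPLL, a relative of HNRNPL, lay between -0.03 and 0.10. HNRNPUL2 was at -0.24, with its other probe set at 0.49. HNRNPLL was the least uniform of these, with other probe sets from -0.50 to 0.95. The non-coding HNRNPD-DT had signals of 107.3 and 75.2 (-0.51), close to the floor on both arrays.

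Other genes of the splicing machinery were taken from lists and set beside the members. Other SR-related proteins, which carry arginine-serine stretches but are named otherwise, had a median log2 difference of 0.23 over 29 measured genes. Above 0 were 20, beside 45.2% of all measured genes. Past 1.5-fold were 3 upward and 0 downward, beside 9.53% and 11.6% of all measured genes, so that the upward count is near the background. The 3 were RSRP1, at 1077 in monolayer and 2107 in spheroids (0.97), BCLAF1 (0.75) and the cyclophilin PPIG (0.65), while SRRM1, a splicing coactivator, was lowest at -0.41 and SUGP2 next at -0.21. The other probe sets of BCLAF1 ranged from -0.39 to 1.26 and those of SUGP2 from -1.93 to 0.78, so that the direction of both depends on the probe set. U1, Sm and Sm-like (LSM) proteins, part of the small nuclear ribonucleoprotein particles, had a median of -0.16. Below 0 were 15 of 17, where 54.8% of all measured genes were. Scaling to the spike-ins would turn that median positive. LSM2 was lowest there at -0.58, SNRPC next at -0.33, LSM8 highest at 0.37 and SNRPD3 second at 0.02. None of the 17 reached 1.5-fold.

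U2 particle and 3′ splice site factors had a median of 0.02 over 21 genes, from SF3B3 at -0.61, 1.53-fold lower, and SF3A2 at -0.52 to SNRPB2 at 0.21 and U2SURP at 0.45. The other probe set of SF3B3 was at -0.05 and that of SF3A2 at -1.03, while those of U2SURP ranged from -0.18 to 1.09. Factors of the tri-snRNP and the catalytic core had a median of -0.02 over 36 genes, from XAB2 at -0.55 and SART1 at -0.50 to BCAS2 at 0.57 and CWC22 at 0.65. Nonsense-mediated decay factors, which degrade many of the transcripts whose translation ends early, had a median of 0.09 over 9 measured genes. SMG8 was at -0.47, EIF4A3 at -0.07, SMG5 at 0.28, whose other probe set was at 1.01, and UPF2 at 0.54. By brightest probe set, 0 genes of these 3 lists were past 2-fold, where 5.61% of all measured genes were.

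Other regulators of alternative splicing had a median of 0.09 over 43 measured genes, with 2 at least 2-fold higher and 0 lower, near the 2.53% and 3.08% of all measured genes. PTBP2, the neuronal relative of the exon repressor PTBP1, had 314.1 in monolayer and 800.7 in spheroids (1.35), and TAF15, an RNA-binding protein of the FET family, 457.1 and 1126 (1.30). The other probe sets of TAF15 ranged from -0.95 to 0.33, so its difference depends on the probe set. NOVA2, at 153.0 and 77.5, was at -0.98, and QKI at -0.65. Among other kinases, phosphatases and importers of SR proteins, 12 measured, DYRK3 was at -1.05, 2.07-fold lower, and TOP1, a topoisomerase that also phosphorylates SR proteins, at -0.58, while CDK13 was at 0.88 and CDK12 at 0.50. The 3 other probe sets of CDK13 lay between -0.38 and 0.01, and the 5 others of CDK12 between -0.31 and 0.20.

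**Figure D4:**
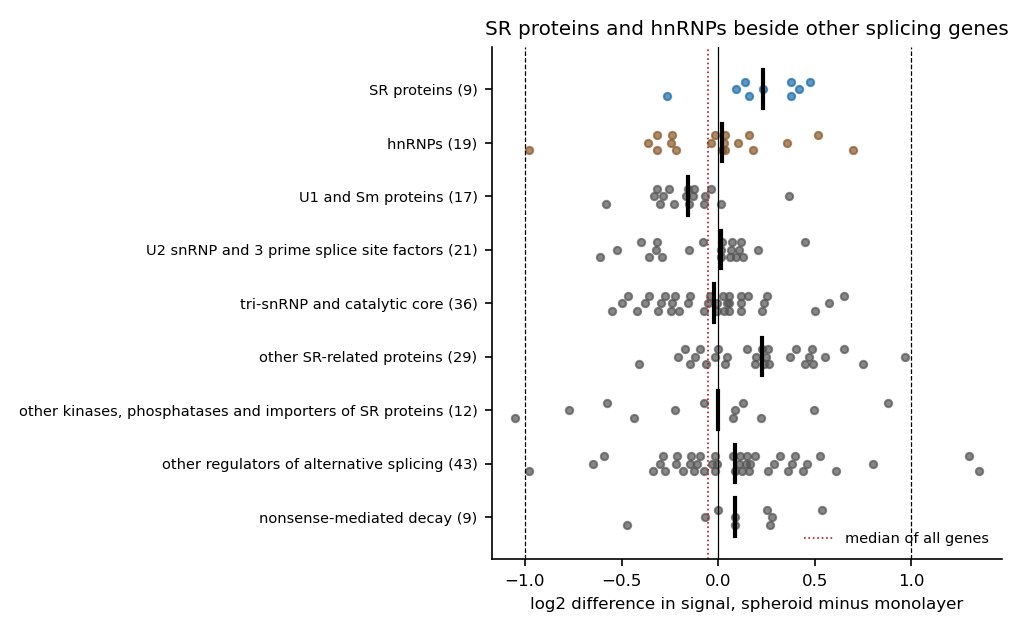
Log2 difference in signal between the spheroid and the monolayer array for SR proteins (blue), hnRNPs (brown) and 7 other lists of splicing genes (grey), each followed by its count of measured genes, 1 array per condition. Each dot is a gene by its brightest probe set, spread vertically for legibility, black bars are medians, the dotted line is the median of all genes (-0.05) and dashed lines mark 2-fold differences. The bars of SR proteins and other SR-related proteins lie at 0.23, and that of U1 and Sm proteins, which includes the Sm-like LSM genes, at -0.16.

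The order of the medians, SR proteins above hnRNPs and all genes, was compared across the processing choices. The median of the SR proteins exceeded that of all genes by 0.21 to 0.95 on the log2 scale under each of them. Several of these choices could hardly alter the order. Scaling by array median, GAPDH or spike-ins moves all genes nearly alike, and both higher floors left the SR median at 0.23. For hnRNPs the distance to all genes ran from -0.06 to 0.43, so that their direction relative to all genes was not fixed. After scaling to the spike-ins the medians were 0.48 for SR proteins, 0.27 for hnRNPs and 0.18 for all genes, a shift of all genes alike.

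**Figure D5:**
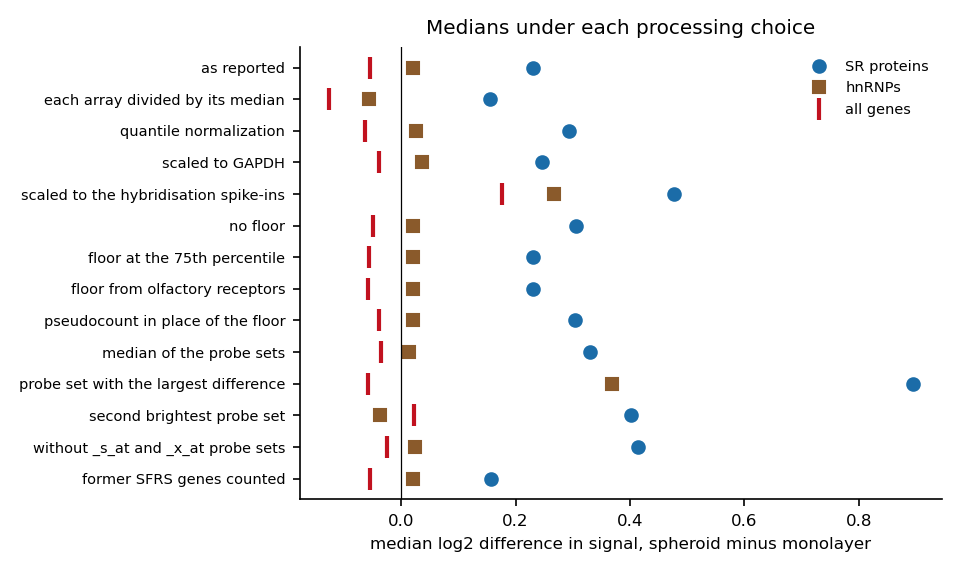
Median log2 difference in signal, spheroid minus monolayer, of SR proteins (blue circles), hnRNPs (brown squares) and all measured genes (red bars) as reported and under 13 other processing choices, 1 array per condition. In every line the circle, at 0.15 to 0.89, lies to the right of the square and of the bar, and the whole line moves right with scaling to the hybridisation spike-ins.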

How the data were processed

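RNA of monolayer cells and of spheroids, both labelled HT-29, was labelled with the Affymetrix 3′IVT kit and hybridised by the authors to GeneChip Human Genome U133 Plus 2.0 arrays. The deposited values are MAS5 signals from Affymetrix Expression Console, intensities on a linear scale for 54675 probe sets, without detection calls. Duplicate arrays are mentioned in the methods. Here 1 of each growth form was used, which limits the precision.

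Python 3.11.15, numpy 2.4.6, pandas 2.3.3 and matplotlib 3.10.9 were used. The platform's annotation assigns 41097 probe sets to 1 gene and 1801 to several, which named no gene, and leaves 11777 unnamed here. Of the former 41043 matched a current symbol in the GRCh38.p14 RefSeq table, which gave the names and promoter windows. Signals under the 50th percentile were set to it before log2 was taken, and each gene was read from its brightest probe set by mean log2 signal. The 2-fold limit follows the methods, and 1.5-fold was added as a smaller one. The computation was tested on simulated data.

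Every measured member is given. From each other list, the genes named are up to 2 in each direction with the largest differences above the floor on both arrays. PPIG, outside this rule, was named after its value was seen. The members and lists were chosen with earlier results of these data known. The motifs were listed after the CLK values and promoter windows had been seen, and the comparison of other probe sets with the brightest, with its limit of 1000, after the signals had been seen. Genes once called SFRS plus a number but since renamed otherwise were not counted as members. A planned comparison of protein sequences was not made, since protein sequences were not used here. Alternatives were other scalings (array median, quantile, GAPDH, hybridisation spike-ins), low signals left as they are or raised further (to the 75th percentile, or to a level taken from olfactory receptor probe sets), a pseudocount, other probe set choices, the renamed SFRS genes and a 3-fold limit.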

Additional observations from a re-analysis of the deposited data

How the results depend on the processing

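Of 466 values of single members under the alternatives, 432 stayed within the SD between probe sets of the reported value and 34 moved further. All 34 were under other probe set choices. Scaling by array median, GAPDH or spike-ins moves each signal above the floor by the same amount, smaller than that SD. Counting the renamed SFRS genes leaves each member's value as it is. Many of the 432 therefore could not have moved further, and their count is no measure of robustness. Of 37 members 18 changed sign under 1 or more alternatives, and 0 of the 4 past 1.5-fold did. Scaling to the hybridisation spike-ins gave medians of 0.48 for SR proteins, 0.27 for hnRNPs and 0.29 for the kinases and TRA2 factors (reported 0.23, 0.02 and 0.05), with 10 members past 1.5-fold (reported 4) and 6 below 0 (reported 15). At that scaling 18.5% of all genes were past 1.5-fold upward, 5.61% downward and 67.2% above 0. The probe set with the largest difference gave medians of 0.89, 0.37 and 0.39, with 5 members past 2-fold (reported 2) and 17 past 1.5-fold, where of all genes 5.97% and 5.40% were past 2-fold upward and downward and 17.8% and 17.2% past 1.5-fold. As reported, 2.53% and 3.08% of all genes were past 2-fold upward and downward, and 9.53% and 11.6% past 1.5-fold. With the largest-difference probe set the shares of all genes thus rose as well, at 1.5-fold less steeply than the count of members. A gene with more probe sets has more chances of a large difference. The members hold 141 probe sets over 38 genes, against 41097 over 19775 for all genes, so the steeper rise is no result about the members. With spike-in scaling the 1.5-fold share of all genes rose upward and fell downward. The second brightest probe set gave 0.40 for SR proteins, and the median of the probe sets 0.32 for the kinases and TRA2 factors. Without probe sets ending in _s_at or _x_at, 28 members were left, the SR proteins stood at 0.41 over 7 genes and 10 members were past 1.5-fold, beside 11.3% of all genes upward and 11.9% downward. A 3-fold limit left 1 member, CLK1. Beyond these settings the reason for each shift was not tested.

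No paired analysis was possible because each condition has 1 array and no test was run. Signals near the floor limit what dim probe sets can show, and a floor from olfactory receptors would stand at 89.2.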

Other observations

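The annotation lists 14 probe sets for a gene of these families together with other genes, so that no gene can be named from them. Of these 13 were above the floor on both arrays, with log2 differences between spheroids and monolayer from -0.59 to 0.67. Past 2-fold were 0 and past 1.5-fold 3, where 5.61% and 21.2% of all measured genes were, so that these counts are near the background. With the genes once named SFRS plus a number but since renamed counted as SR proteins, 13 of 17 were above 0 and the median log2 difference was 0.16.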
